A study of Homo sapiens with 8 samples.

Results

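The sites described here are stretches of RNA, given as human genome positions of build hg19, where a peak for PTB was called after crosslinking with UVC light and no peak was called in any other list of the study. Peaks of the PTB UVC list lying within 20 nt of each other on a strand were merged into 80531 sites. A site was kept when it shared no nucleotide, on its own strand, with any peak of the 4 other lists. Members were thus chosen by the positions of called peaks in all 5 lists and by no other value. This left 69028 UVC-only sites, 85.7% of the UVC sites, covering 3100.25 kb. They are part of 206508 merged sites over the 5 lists. By the same rule 72.6% of UVA sites, 70.8% of iCLIP sites, 74.5% of no-UV sites and 67.4% of YFP sites were found in their own list alone. Those shares are what the rule itself counts, and nothing is read from them.

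The study applied GoldCLIP, a method of the CLIP (crosslinking and immunoprecipitation) family without a gel step, to human 293T cells, an embryonic kidney line. All cells of its 8 samples carried a transgene for a Halo-tagged protein, whose promoter is not given in the sources used here. Cells with Halo-PTB were crosslinked with UVC (2 samples), crosslinked with UVA (2 samples) or left without UV (2 samples), and cells with Halo-YFP, a fluorescent protein that serves as the control, were crosslinked with UVC (2 samples). The fifth list holds peaks of an earlier PTB iCLIP study, called anew by the submitters from all of its samples, whose cells the series text does not name. Each group of 2 samples had a single pooled list, so no value below has a replicate spread and no test between conditions was possible. The intervals given are 95% intervals that cover counting error only and treat sites as independent, although neighbouring sites can share reads. Sequencing depth is unknown, so a site missing from a list may be unbound or unsampled, and these cannot be told apart.

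PTB, the polypyrimidine tract binding protein, is an abundant nuclear RNA-binding protein that binds runs rich in U and C. It often sits in introns near splice sites, where it can repress the inclusion of exons, and it also acts in RNA stability and translation. UVC light joins natural bases, mainly uridine, to a protein in direct contact, whereas UVA is commonly used with a photoreactive nucleoside fed to the cells, and whether one was used here is not given in the sources used here. A control without UV, or with an unrelated tagged protein, shows which peaks arise without crosslinked PTB. No sequence and no gene name is given for the sites, since no hg19 genome or annotation was used here.

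UVC-only sites were compared with 10872 shared UVC sites, which overlapped a UVA or iCLIP peak and no control peak. The remaining 631 UVC sites overlapped a no-UV or YFP peak. The UVC-only sites were also set beside the 50921 UVA-only, 37139 iCLIP-only, 1745 no-UV-only and 728 YFP-only sites that the same rule gave for the other lists. A wide site has more room to overlap a peak, so width is not fully independent of the rule.

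Many UVC-only sites were close to 50 nt wide, and few were wider. Their median width was 49 nt, with quartiles of 39 and 50 nt and a range from 1 to 211 nt. Of all widths 50 nt was the most frequent, held by 20745 sites (30.1%, 29.7 to 30.4), and 44.7% of the sites were 48 to 50 nt wide. This width was exact in 20.7% of shared UVC sites, 59.3% of no-UV-only sites, 1.23% of UVA-only sites, 1.17% of iCLIP-only sites and 0 of 728 YFP-only sites (which, at 3 counts of the total, allows up to 0.41209%). The UVC-only share was thus 9.36 percentage points above that of shared UVC sites (8.52 to 10.2) and 29.2 points below that of no-UV-only sites (interval of the difference -31.5 to -26.9).

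Only 12.3% of UVC-only sites were wider than 50 nt, against 44.5% of shared UVC sites. The difference was -32.2 percentage points (-33.2 to -31.2). UVA-only sites had a median width of 36 nt and iCLIP-only sites one of 34 nt, while YFP-only sites had a median of 85 nt. The frequent width of 50 nt was thus shared by UVC-only, shared UVC and no-UV-only sites and was rare in UVA-only and iCLIP-only sites.

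**Figure D1:**
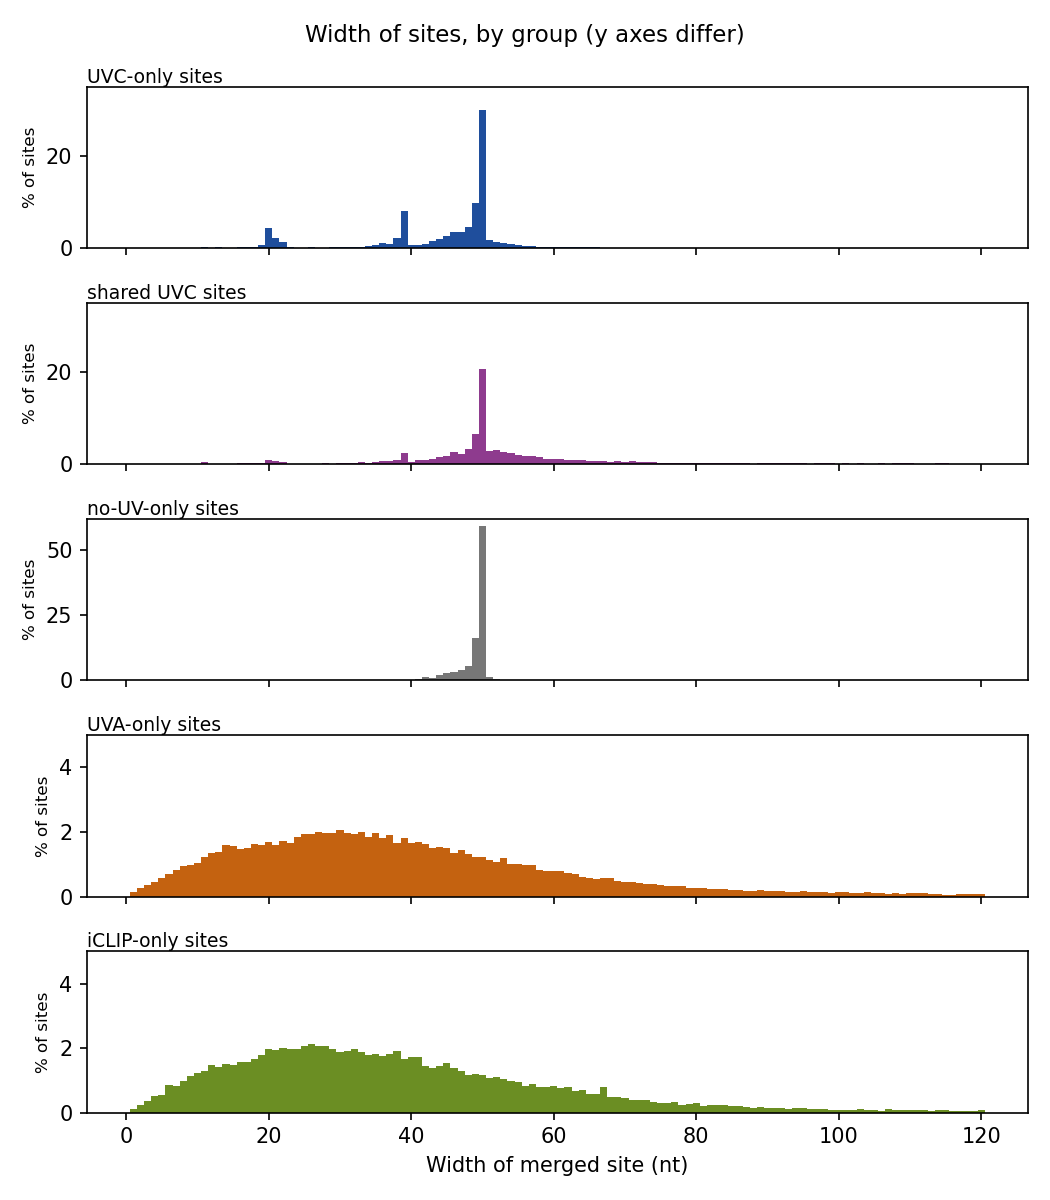
Width of merged sites in nt (x axis) against the percent of sites in each group (y axis, with a different scale in each panel), for UVC-only, shared UVC, no-UV-only, UVA-only and iCLIP-only sites. UVC-only sites have a high bar at 50 nt (30.1%) and smaller ones at 39 nt (8.16%) and 20 nt (4.50%), no-UV-only sites are almost all near 50 nt, and UVA-only and iCLIP-only sites are spread out.

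Below 50 nt, UVC-only sites had 2 further frequent widths that were rare or missing among no-UV-only sites. A width of exactly 39 nt was found for 5634 sites (8.16%), against 2.43% of shared UVC sites and 0.344% of no-UV-only sites. One of exactly 20 nt was found for 3106 sites (4.50%), against 1.03% of shared UVC sites and 0 of 1745 no-UV-only sites, which on the same basis of 3 counts allows up to 0.17192%. Among UVA-only sites exactly 39 nt was found in 1.81% and exactly 20 nt in 1.69%. The 19 to 23 nt class held 8.93% of UVC-only and 8.29% of UVA-only sites, and the 36 to 39 nt class 12.3% and 7.19%. The short classes were also those least often shared with another list. Of UVC sites 19 to 23 nt wide 94.9% were UVC-only, as were 94.0% of those 36 to 39 nt wide, 89.0% of those 40 to 47 nt wide, 90.02% of those 48 to 50 nt wide, 69.7% of those 51 to 60 nt wide, 55.5% of those 61 to 100 nt wide and 36.5% of wider ones.

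The deposited intervals inside the sites followed a few layouts, and these depended on the strand. The peak caller is not given in the sources used here, and its part in these layouts, and in the widths and the strand difference, was not tested. Both strands held similar numbers of UVC-only sites, 51.9% of them on the plus strand. On the plus strand, however, 72.4% of UVC-only sites were made of 2 distinct intervals, against 14.1% on the minus strand. An imbalance of the same direction was seen among shared UVC sites, 40.3% against 13.2%, and no-UV-only sites, 95.3% against 17.6%. It was also seen among YFP-only sites, 93.4% against 50.3%, and hardly among UVA-only sites, 7.17% against 6.22%.

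Intervals are given here in order of genome position on both strands. On the minus strand the first interval is therefore at the downstream end of the RNA. Where 2 intervals touched end to end, the first was 11 nt long at 89.4% of 19057 plus-strand sites and 73.3% of 3281 minus-strand sites. Among no-UV-only sites these shares were 91.7% and 87.4%. The most frequent layout was 11 nt followed directly by 39 nt, at 6055 plus-strand sites (16.9% of that strand) and 2089 minus-strand sites (6.30%). It was more frequent among no-UV-only sites, at 36.7% of the plus-strand and 14.8% of the minus-strand sites. The site of 39 nt was mostly another layout, 4 nt and 19 nt parted by a gap of 16 nt, at 4300 plus-strand sites (12.0%) and 915 minus-strand sites (2.76%). No site of 2 intervals parted by a gap was found among the 888 plus-strand or 857 minus-strand no-UV-only sites. The 19 to 23 nt class lay mainly on the minus strand, with 12.3% on the plus strand, and the 36 to 39 nt class mainly on the plus strand, with 80.3%. Exact widths of 50 nt were more frequent on the minus strand (42.6%) than on the plus strand (18.4%). The same order held for shared UVC sites, 27.7% against 14.3%, and for no-UV-only sites, 81.3% against 38.0%.

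The strength of each site was read from the deposited peak score, which equalled 10 times the negative log10 of the deposited p-value, rounded down, in 99.9% of the UVC peaks with a printed p-value above 0, and which reaches at most 1000. A site took the highest score of its peaks. UVC-only sites were mostly weak: their median score was 19, with quartiles of 16 and 26, a 99th percentile of 87 and a lowest value of 13. A single value, 16, was held by 21249 sites (30.8%), and 23 was held by a further 7172 (10.4%). A score of 16 was found in 14.5% of shared UVC sites, 36.7% of no-UV-only sites and 4.96% of UVA-only sites. Medians were 26 for shared UVC sites, 17 for no-UV-only and for YFP-only sites, 39 for iCLIP-only and 60 for UVA-only sites.

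Strong UVC-only sites were few. A score of at least 100 was reached by 463 of them (0.671%), against 6.62% of shared UVC sites. The difference was -5.95 percentage points (-6.42 to -5.48). The share of UVC sites that were UVC-only fell from 91.0% (28946 of 31805) at scores up to 16 to 88.0% at 17 to 20, 87.8% at 21 to 30, 80.0% at 31 to 50, 63.2% at 51 to 100 and 31.7% (456 of 1437) above 100. Above 100, 49.4% of UVC sites were shared and 18.9% lay on a control peak. The rule did not use the scores, but they come from the same peaks whose positions it used.

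**Figure D2:**
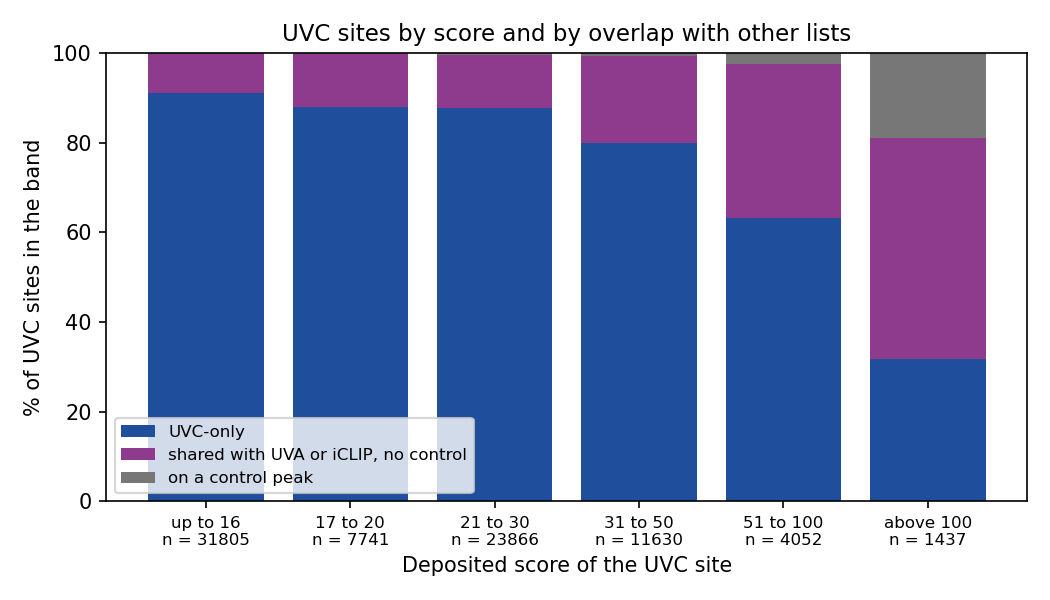
Percent of UVC sites (y axis) in each band of the deposited score (x axis) that were UVC-only, shared with a UVA or iCLIP peak, or on a control peak. The UVC-only part shrinks from 91.0% at scores up to 16 to 31.7% above 100.

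Among sites of like score, UVC-only sites were less often wider than 50 nt in every band. The shares of UVC-only and shared UVC sites were 0.864% and 3.17% at scores up to 16, 13.7% and 39.3% from 21 to 30, 54.5% and 82.9% from 51 to 100 and 59.2% and 93.0% above 100. The exact width of 50 nt did not keep its order in every band. UVC-only sites held it more often at 31 to 50 (29.7% against 14.8%) and at 51 to 100 (18.2% against 6.82%). At 17 to 20 they held it in 12.7% of cases (11.9 to 13.5), against 15.8% of shared UVC sites (13.5 to 18.3).

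The distance from a UVC-only site to the nearest peak of another PTB list was not fixed by the rule beyond the lack of overlap. Distances were counted on the same strand from edge to edge, with 1 for peaks that touch. A UVA or iCLIP peak lay within 50 nt of 3738 UVC-only sites (5.42%), within 200 nt of 9150 (13.3%), within 1000 nt of 19930 (28.9%, 28.5 to 29.2) and within 10000 nt of 46830 (67.8%). The median distance was 3782 nt. Shared UVC sites, measured to the nearest such peak that they did not overlap, had a median of 87 nt, and 79.8% had one within 1000 nt. These sites were chosen for overlapping such a peak. The peaks measured to were not merged, so one adjoining the overlapped peak could count as the nearest. The contrast with shared UVC sites thus follows in part from the rule. Among control sites 24.5% of no-UV-only and 26.9% of YFP-only sites had a UVA or iCLIP peak within 1000 nt.

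Measured against the iCLIP list, which came from other samples, UVC-only sites were less often close to a peak than UVA-only sites and somewhat more often than no-UV-only sites. An iCLIP peak lay within 1000 nt of 11189 UVC-only sites (16.2%, 15.9 to 16.5), 29.7% of UVA-only sites (29.3 to 30.1), 13.1% of no-UV-only sites (11.6 to 14.8) and 14.3% of YFP-only sites (11.82 to 17.04). The UVC-only share was 13.5 percentage points below that of UVA-only sites (interval of the difference -14.0 to -13.0) and 3.09 points above that of no-UV-only sites (1.48 to 4.69). The difference from YFP-only sites was 1.92 points with an interval that held 0 (-0.633 to 4.48). Median distances to iCLIP were 7979.5 nt for UVC-only, 4121 nt for UVA-only, 12022 nt for no-UV-only and 8990.5 nt for YFP-only sites.

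Distances to the UVA list gave a similar picture. A UVA peak lay within 1000 nt of 21.7% of UVC-only sites, 32.8% of iCLIP-only sites, 18.7% of no-UV-only sites and 21.6% of YFP-only sites. UVC-only sites were 11.1 percentage points below iCLIP-only sites (interval of the difference -11.7 to -10.6) and 3.03 points above no-UV-only sites (1.18 to 4.88). From YFP-only sites they differed by 0.146 points (-2.86 to 3.15).

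**Figure D3:**
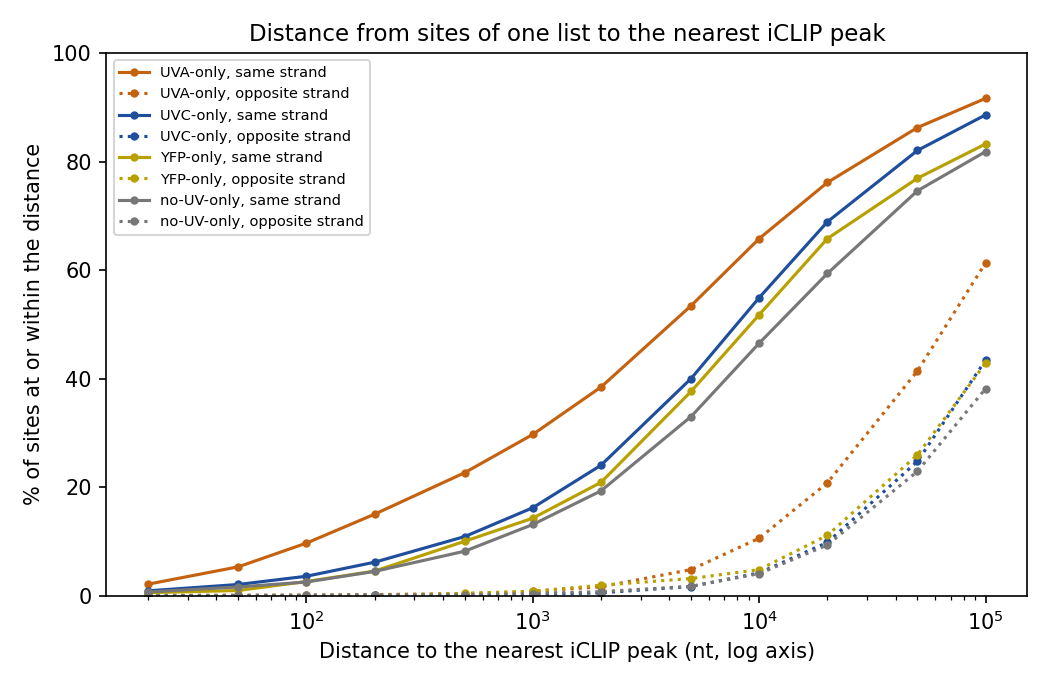
Distance to the nearest iCLIP peak in nt (x axis, log scale) against the percent of sites at or within that distance (y axis). Solid curves are for peaks on the same strand and dotted curves for peaks on the opposite strand. Groups are UVC-only, UVA-only, no-UV-only and YFP-only sites. At 1000 nt their solid curves stand at 16.2%, 29.7%, 13.1% and 14.3%.

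By chromosome, the share of UVC-only sites with an iCLIP peak within 1000 nt ranged from 11.7% on chromosome 9 to 28.0% on chromosome 19. It was below that of UVA-only sites on 23 of 23 chromosomes. It was above that of no-UV-only sites on 18 of 23 and above that of YFP-only sites on 15 of 23, where single chromosomes held as few as 22 no-UV-only and 10 YFP-only sites.

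The share of UVC-only sites near an iCLIP peak changed little with their score. From the lowest to the highest score band, 17.2%, 15.1%, 15.5%, 15.2%, 16.9% and 18.2% of them had an iCLIP peak within 1000 nt. Among UVA-only sites the share went from 13.1% in the lowest band through 19.4%, 21.5% and 31.4% to 38.8% at scores of 51 to 100, and stood at 34.1% above 100. At scores up to 16 the UVC-only share was therefore the higher of the pair, and from 17 upwards the UVA-only share was. The same score in the UVC and UVA lists need not stand for the same number of reads. Width went with nearness more than score did: 12.4% of the 19 to 23 nt class, 12.1% of the 36 to 39 nt class, 15.97% of the 40 to 47 nt class, 16.4% of the 48 to 50 nt class, 21.4% of the 51 to 60 nt class and 22.6% of the 61 to 100 nt class had an iCLIP peak within 1000 nt. For UVA peaks these shares were 13.8%, 14.3%, 21.9%, 20.98%, 34.4% and 37.7%, so the rise was not steady. Over the score bands, 22.97%, 21.3%, 19.9%, 20.9%, 25.03% and 28.1% of UVC-only sites had a UVA peak within 1000 nt.

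**Figure D4:**
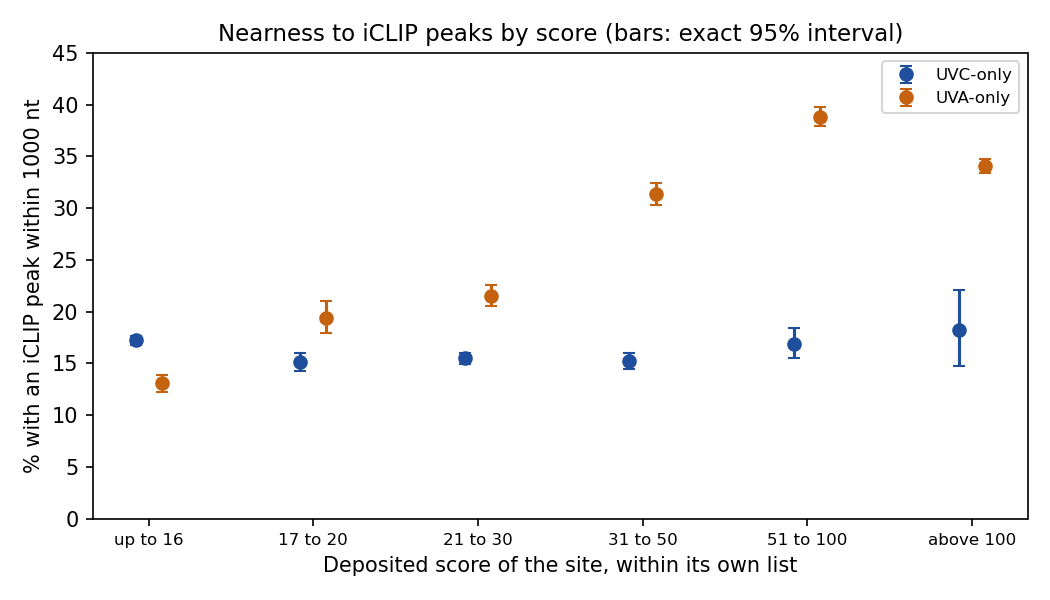
Percent of sites with an iCLIP peak within 1000 nt on the same strand (y axis) by band of the deposited score within each list (x axis), for UVC-only and UVA-only sites, with exact 95% intervals as bars. UVC-only sites stay between 15.1% and 18.2%, and UVA-only sites go from 13.1% to 38.8%.

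Peaks of the other lists near UVC-only sites were not evenly placed upstream and downstream along the RNA. Each site was counted once, by its nearest peak, and the few with a peak equally far on both sides were left out. Of 1334 UVC-only sites with a UVA peak within 20 nt, the nearest lay downstream of 807 and upstream of 523, a downstream share of 60.7% (58.0 to 63.3). The share was 58.3% within 50 nt, 52.5% within 200 nt (51.3 to 53.7) and 51.04% within 1000 nt. It was 58.6% on the plus and 62.97% on the minus strand within 20 nt, so both strands leaned the same way. The downstream lean of UVA peaks was larger around iCLIP-only sites, at 68.5% within 20 nt (65.5 to 71.4) and 64.5% within 200 nt (63.3 to 65.7). Around no-UV-only sites the downstream share was 65.8% within 200 nt (57.5 to 73.4), over 146 sites. Within 20 nt it was 50% (31.3 to 68.7), over 30 sites. YFP-only sites went the other way, with 22.7% within 50 nt (7.82 to 45.4), over 22 sites. Within 200 nt their share was 42.1% (29.1 to 55.9), over 57 sites.

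For iCLIP peaks the lean of UVC-only sites was opposite. Of 4258 UVC-only sites with an iCLIP peak within 200 nt, the nearest lay downstream of 1876 and upstream of 2378, a downstream share of 44.1% (42.6 to 45.6). Within 20 nt the share was 48.1% (44.04 to 52.1). Around UVA-only sites it was 36.5% within 200 nt (35.4 to 37.6), further from an even split, and around no-UV-only sites 56.4% (44.7 to 67.6), over 78 sites.

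Peaks of the other PTB lists were rare on the opposite strand. Only 29 UVC-only sites (0.0420%) overlapped a UVA or iCLIP peak there, 25 of them a UVA and 6 an iCLIP peak. The share was 0.0781% (2 of 2561) at scores of 51 to 100 and 0 of 456 above 100. An opposite-strand iCLIP peak within 1000 nt was found for 167 UVC-only sites (0.242%), against 11189 on the same strand. The opposite-strand share was 0.799% for UVA-only and 0.401% for no-UV-only sites. On the opposite strand 2 UVC-only sites overlapped a no-UV peak and 0 of 69028 a YFP peak, which at 3 counts of the total allows a share of up to 0.00435%.

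Control peaks, too, were seldom close, in lists of only 3809 no-UV and 2136 YFP peaks, against 83725 UVA and 58213 iCLIP peaks. With so few control peaks, sites of any group seldom have one near. A no-UV or YFP peak lay within 1000 nt of 1330 UVC-only sites (1.93%, 1.83 to 2.03), against 6.02% of shared UVC, 2.36% of UVA-only and 1.32% of iCLIP-only sites. Among UVC-only sites this share was 1.61% at scores up to 16 and 10.1% (7.48 to 13.2) above 100. So the strongest UVC-only sites were more often near a control peak than the weakest, 10.1% against 1.61%. They were also more often near a UVA peak, 28.1% (23.99 to 32.4) against 22.97% (22.5 to 23.5). For iCLIP peaks the shares of these groups were 18.2% and 17.2%.

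UVC-only sites were spread over chromosomes 1 to 22 and X. The part of UVC sites found in no other list was highest on chromosomes 4 (90.9%), 18 (90.5%) and 13 (90.1%) and lowest on 19 (73.0%), 17 (79.8%) and 16 (81.4%). Chromosome 19 held 3.57% of UVC-only and 7.97% of shared UVC sites, a ratio of 0.448 (0.416 to 0.483). Chromosome 4 held 4.88% and 2.97%, a ratio of 1.64 (1.47 to 1.84). Of 23 chromosomes, 11 had a ratio whose interval lay above 1, 7 had one below 1 and 5 had one that held 1. The rule sorts UVC sites by where UVA and iCLIP peaks lie. A chromosome dense in such peaks therefore loses UVC-only sites by the rule itself, and these ratios are not independent of it. Chromosomes 16, 17 and 19 are known as rich in genes, and 4, 13 and 18 as poor in them. Within width classes, chromosome 19 held 1.38% of sites 19 to 23 nt wide and 4.19% of those 48 to 50 nt wide.

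The chromosome shares of UVC-only sites were about equally close to those of no-UV-only and of iCLIP-only sites. The absolute differences in share, summed over chromosomes, came to 10.3 percentage points against no-UV-only, 11.04 against iCLIP-only, 24.0 against shared UVC and 25.1 against UVA-only sites. Chromosome 19, for example, held 3.72% of no-UV-only, 5.35% of iCLIP-only and 8.53% of UVA-only sites. The no-UV-only group is small, which by itself adds to such a sum.

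**Figure D5:**
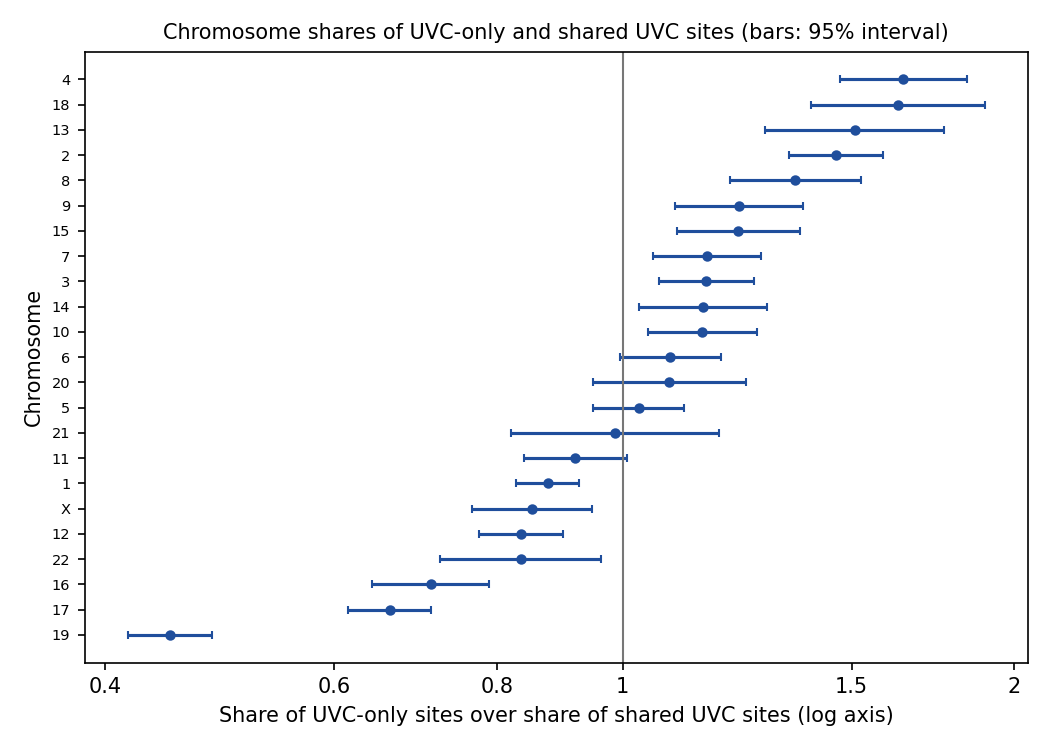
Share of UVC-only sites on each chromosome divided by the share of shared UVC sites there (x axis, log scale), with 95% intervals as bars and chromosomes on the y axis. Chromosomes 4 (1.64) and 18 (1.63) lie at the upper end and chromosome 19 (0.448) at the lower end. The ratio is not independent of the rule, which sorts UVC sites by where UVA and iCLIP peaks lie.

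Within 1000 nt along the genome UVC-only sites were less tightly packed than those of the other PTB lists. The next UVC-only site on the same strand lay within 1000 nt for 12247 of 68982 sites (17.8%), with a median distance of 5918 nt. The share was 33.3% among UVA-only sites, with a median of 3528 nt, and 32.5% among iCLIP-only sites, whose median of 5641 nt was close to that of UVC-only sites. Among shared UVC sites, a smaller group, the share was 20.4%, with a median of 34023 nt. The UVC-only share was 26.4% when only touching peaks were merged, and 8.78% among the sites with a score of at least the UVC median of 21, a smaller set. The other groups were not recomputed in these ways. Within 10000 nt the shares of UVC-only, UVA-only and iCLIP-only sites came together, at 62.1%, 63.6% and 56.8%. Among shared UVC sites it was 37.9%. A shared UVC site lay within 1000 nt of 7.21% of UVC-only sites and within 10000 nt of 26.4%.

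Counted in windows of 100 kb on each strand, 14053 windows held a UVC-only site, with a median of 3. Windows with 20 or more numbered 201 and held 6.76% of the sites, and the 10 fullest held 0.514%. The fullest were chromosome 1 from 16200001 to 16300000 on the plus strand and chromosome 6 from 97600001 to 97700000 on the minus strand, with 43 UVC-only sites each. The first had 10 UVA and 6 iCLIP sites, and the second had 28 and 21. Next came chromosome 2 from 61700001 to 61800000 on the minus strand with 37, chromosome 12 from 95600001 to 95700000 on the plus strand with 36, and chromosome 2 from 61500001 to 61600000 on the minus strand with 36. Each of these 5 windows thus held sites of the other PTB lists as well, from 4 to 28 UVA and from 6 to 21 iCLIP sites. The no-UV list had 1 site in each of 4 of them and none in the window on chromosome 12.

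In 3139 windows (22.3% of those with a UVC-only site) neither the UVA nor the iCLIP list had a site. These windows held 9069 UVC-only sites (13.1%), with 1 site in 1263 of them and 5 or more in 611. The fullest, picked after the counts were seen, was chromosome 1 from 197500001 to 197600000 on the minus strand, with 26 UVC-only sites and no site of any other list. The next was chromosome X from 76900001 to 77000000 on the minus strand, with 18 UVC-only and 2 no-UV sites. Chromosome 3 from 182600001 to 182700000 on the plus strand had 17 and also 2 no-UV sites. So some runs of UVC-only sites had no counterpart in UVA or iCLIP, and some of those had a no-UV site among them.

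Far from any UVA or iCLIP peak, 4817 UVC-only sites (6.98%) had none within 100000 nt. Their median score was 22, above the 19 of those within 1000 nt of such a peak. Of the far sites, 53.8% had another UVC site within 10000 nt. The farthest lay on chromosome 13 from 61141160 to 61141185 on the plus strand, 7883889 nt from the nearest such peak, with a score of 38.

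The 10 UVC-only sites with the highest scores fell into isolated sites and close neighbours of other peaks. The strongest lay on chromosome 10 from 88649357 to 88649401 on the plus strand and was the only UVC-only site at the score limit of 1000. It was 45 nt wide and was made of 6 deposited peaks, among them one of 2 nt (88649357 to 88649358) listed 2 times. The nearest UVA peak was 88289 nt and the nearest iCLIP peak 209733 nt away. A site on chromosome 20 from 18246382 to 18246430 on the minus strand scored 491, with the nearest UVA peak 132578 nt away. Another on chromosome 3 from 126482157 to 126482214 on the plus strand scored 490, with the nearest UVA and iCLIP peaks 227872 and 227864 nt away. These 3 sites thus stood alone, with peaks of both other PTB lists at least 88289 nt away.

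The other strong sites were nearer to other peaks. On chromosome 12 from 104341604 to 104341702, plus strand, a site scored 637 with a UVA peak 439 nt away. On chromosome 2 from 232319462 to 232319576, minus strand, a site of 115 nt scored 524. It had a UVA peak 39 nt, an iCLIP peak 906 nt, a YFP peak 959 nt and a no-UV peak 984 nt away. On chromosome 1 from 245017426 to 245017501, minus strand, a site scored 439, with peaks of UVA 26 nt, iCLIP 44 nt and YFP 133 nt away. A site on chromosome 8 from 141532828 to 141532884, minus strand, scored 426 with UVA 29 nt and iCLIP 46 nt away. On chromosome X from 73064956 to 73065036, minus strand, a site scored 375 with a no-UV peak 133 nt and a UVA peak 142 nt away. The last were on chromosome 14 from 21684017 to 21684070, minus strand, at 369, with UVA 2818 nt away, and on chromosome 1 from 33146113 to 33146222, plus strand, at 368, with UVA 253 nt away. In all, 6 of the 10 had a UVA peak within 1000 nt, 4 an iCLIP peak and 3 a control peak. Among all UVC-only sites these shares were 21.7%, 16.2% and 1.93%, and among those scoring above 100 they were 28.1%, 18.2% and 10.1%. Of the next 5 sites by score, 1 had a UVA peak within 1000 nt, 1 an iCLIP peak and 1 a control peak.

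The 5 widest UVC-only sites were not the strongest. The widest, 211 nt on chromosome 1 from 70695135 to 70695345 on the plus strand, scored 96 and had a UVA peak 208 nt away. One of 186 nt on chromosome 11 from 130096771 to 130096956 on the minus strand scored 227 and had its nearest UVA peak 11745 nt away. The others scored 71 (chromosome 22 from 35820247 to 35820429, plus strand), 31 (chromosome 12 from 104742581 to 104742753, plus strand) and 34 (chromosome 7 from 116201060 to 116201230, plus strand). None of the 5 had a control peak within 1000 nt, and only 1.93% of all UVC-only sites had one.

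The border of the rule ran through sites with similar medians. Just inside it, 123 UVC-only sites touched a UVA or iCLIP peak without sharing a nucleotide. The highest scores among them were 64, on chromosome 19 from 49469042 to 49469085 on the plus strand, and 62, on chromosome 2 from 113420942 to 113420999 on the plus strand. Just outside it, 113 shared UVC sites overlapped such a peak by 1 nt only. The highest scores there were 120, on chromosome 17 from 74730606 to 74730668 on the minus strand, and 86, on chromosome 10 from 14945052 to 14945131 on the plus strand. The 1024 UVC-only sites within 10 nt of such a peak had a median score of 21 and a median width of 50 nt. The 1343 shared UVC sites whose overlap was at most 10 nt (12.4% of shared sites) had medians of 22 and 50 nt.

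The deposited UVC list also repeated some intervals. A repeated interval was found in 977 UVC-only sites (1.42%). The share was 3.27% of shared UVC, 3.55% of no-UV-only, 4.67% of YFP-only, 0.575% of UVA-only and 0.722% of iCLIP-only sites. Of all UVC-only sites, 4 were made of 10 or more peaks, all on the plus strand of chromosome 5. The site from 140881002 to 140881050 had 42 peaks, that from 140805032 to 140805079 had 34, that from 140274052 to 140274101 had 26 and that from 140824389 to 140824429 had 18. Each counts as 1 site here, and their scores, between 16 and 24, were as low as those of most UVC-only sites.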

How the data were processed

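Peak lists of GoldCLIP for PTB with UVC, UVA or no UV and for YFP with UVC were analysed, with a list of PTB iCLIP peaks. Mapping used Bowtie 1.1.2, and dm3 stands beside hg19 among the genome builds, both per the submitters' processing notes. The peak caller is not given in the sources used here. Positions were read as hg19 and written 1-based. The deposited score of each peak was used as given, and peaks with a deposited p-value of 0 and a score of 0 were set to the limit of 1000. Peaks within 20 nt on a strand were merged, and overlap meant at least 1 shared nt. Shares have exact Clopper-Pearson intervals of 95%, a count of 0 has a floor of 3 counts of the total, and differences and ratios have normal ones. Regions named are the 10 highest scores, the 5 widest, the 5 fullest windows of 100 kb and 2 sites on each side of the rule's border. Others are named as chosen after their values were seen, among them the farthest site and those with most repeated peaks. The members, lists and measures were chosen with earlier results of these data known. Scripts ran in Python 3.11.15 with pandas 2.3.3 and numpy 2.4.6, intervals came from scipy 1.17.1, and plots from matplotlib 3.10.9. Merging, overlap and distances were tested on simulated data. A repeat in bedtools 2.31.1 returned 80531 merged and 69028 UVC-only sites, equal to those here.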

Additional observations from a re-analysis of the deposited data

How the results depend on the processing

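Of 58 alternatives, 26 gave a value within the 95% interval of the reported one and 32 did not, judged without the alternatives' own intervals. Apart from the chromosome 19 ratio, these are values of UVC-only sites alone, so their order against other groups was not recomputed under each alternative. The share of UVC sites that were UVC-only (85.7%) was 86.7% with only touching peaks merged, 86.0% with merging within 50 nt, 81.0% when a peak within 50 nt also took a site out, 81.2% at scores of at least the median of 21, 86.1% with controls ignored and 90.2% when only UVA and iCLIP peaks scoring at least 100 counted. The share with a score of at least 100 (0.671%) was 0.608% with touching peaks merged and 1.39% at scores of at least the median, and the share exactly 50 nt wide (30.1%) was 27.0% and 31.3%. The share within 1000 nt of a UVA or iCLIP peak (28.9%) was 27.9% with touching peaks merged, 28.4% with merging within 50 nt, 24.8% without sites near another peak and 27.7% at scores of at least the median. Over the score bands it was 30.6%, 27.1%, 27.1%, 27.6%, 31.5% and 34.9%. Overlap on the opposite strand (0.0420%) was 0.0781% (2 of 2561, 0.00946 to 0.282) at scores of 51 to 100. Above 100 it was 0 of 456 (exact interval 0 to 0.806). Both intervals held the reported value. The chromosome 19 ratio (0.448) was 0.390 at scores of at least the median, and 0.559, 0.379, 0.361, 0.568 and 0.661 in the bands up to 16, 21 to 30, 31 to 50, 51 to 100 and above 100, where the interval in the last band (0.431 to 1.01) held 1. The share with the next UVC-only site within 1000 nt (17.8%) was 26.4% with touching peaks merged, 16.6% with merging within 50 nt, 16.4% without sites near another peak and 8.78% at scores of at least the median. These causes were not tested beyond what each change of the rule itself does. Sequence content and place in genes were not run, since no hg19 genome or annotation was used here. No paired analysis was possible because each group has 1 pooled list that carries no replicate numbers. For the same reason no replicate could be left out.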
